A study of Mus musculus with 28 samples.

Results

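The mRNA of CD8+ tumour-infiltrating lymphocytes (TILs) sorted as lacking Tim-3 and PD-1 was compared between mice given antibodies to both receptors and mice given control antibodies. The TILs came from wild-type C57BL/6 mice implanted with MC38-OVA, a mouse colon carcinoma line that makes the model antigen ovalbumin. Tim-3-PD-1- CD8+ TILs, here called DN (double negative) cells, were sorted on day 12 after tumour implantation from mice treated with anti-Tim-3 and anti-PD-1 antibodies together (blockade, 3 libraries) or with isotype control antibodies (isotype, 3 libraries). These 6 bulk libraries, of 28 samples in the series, were chosen by their labels, and all genes were taken. The same table held 6 libraries of Tim-3+PD-1+ (DP, double positive) TILs from the same treatments, and a separate table held 14 libraries of PD-1- CD8+ TILs sorted as effector-like (Slamf7hiCX3CR1+), memory-like (Slamf7hiCX3CR1-) and naive-like (Slamf7-CX3CR1-), with 1 further surface marker in the gate. Each library was made from about 2000 lysed cells by an adapted SMART-Seq2 protocol, which amplifies whole transcripts. The labels do not say whether libraries of a group came from separate mice, so each p-value reflects the spread among the libraries at hand, which may be technical.

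PD-1 is an inhibitory receptor of activated T cells, and Tim-3 marks T cells that have been stimulated for a long time in tumours and chronic infection. In such settings cells that carry both are regarded as the most dysfunctional, while cells without them include naive, memory and effector T cells. Naive and memory cells rely on the transcription factors TCF-1 and LEF-1 and on receptors that lead them through lymph nodes. Effector cells use T-bet, perforin, granzymes and interferon gamma. The comparison asked whether cells without the receptors that the antibodies bind nonetheless change when these are blocked.

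DN cells under blockade held more mRNA of several effector genes, among them Prf1, Tbx21 and Ifng, and less of several genes of naive and memory cells, among them Lef1 and Ccr7. The mRNA of Tim-3 (Havcr2) and PD-1 (Pdcd1) themselves was also higher. Of 12710 genes tested, 142 passed the threshold (1.12%; edgeR quasi-likelihood test, Benjamini-Hochberg adjusted p under 0.05). Of these, 66 were higher under blockade (0.519% of genes tested) and 76 were lower (0.598%). The genes that rose had a median log2 fold change of 1.22 and 39 of them changed at least 2-fold, while those that fell had a median of -0.76 and 21 of them changed at least 2-fold. Over all genes the median was -0.01, with 6216 above 0 and 6489 below. In 65 of the 66 and in 76 of the 76, the values of the blockade libraries did not overlap those of the isotype libraries. A small p favours such genes, so this adds no support to the calls. Over all genes, every blockade library was above every isotype library in 6.49% and below in 10.2%.

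The spread behind these calls was estimated from the 12 DN and DP libraries together. With the replicate number of the titles as a block, 59 genes were called, of which 49 were among the 142. With the 6 DN libraries fitted alone, 2 genes were called, the red cell genes Hba-a2 and Alas2, although 1337 had an unadjusted p under 0.05. The count also turned on single libraries. It was 82 without blockade replicate 1, 42 without blockade replicate 3, 22 without isotype replicate 1, 28 without isotype replicate 2 and 229 without isotype replicate 3. Blockade replicate 3 had the highest blockade value in 35 of the 66 genes that rose and the lowest in 51 of the 76 that fell. Isotype replicate 2 had the highest isotype value in 62 of the 76 that fell.

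**Figure D1:**
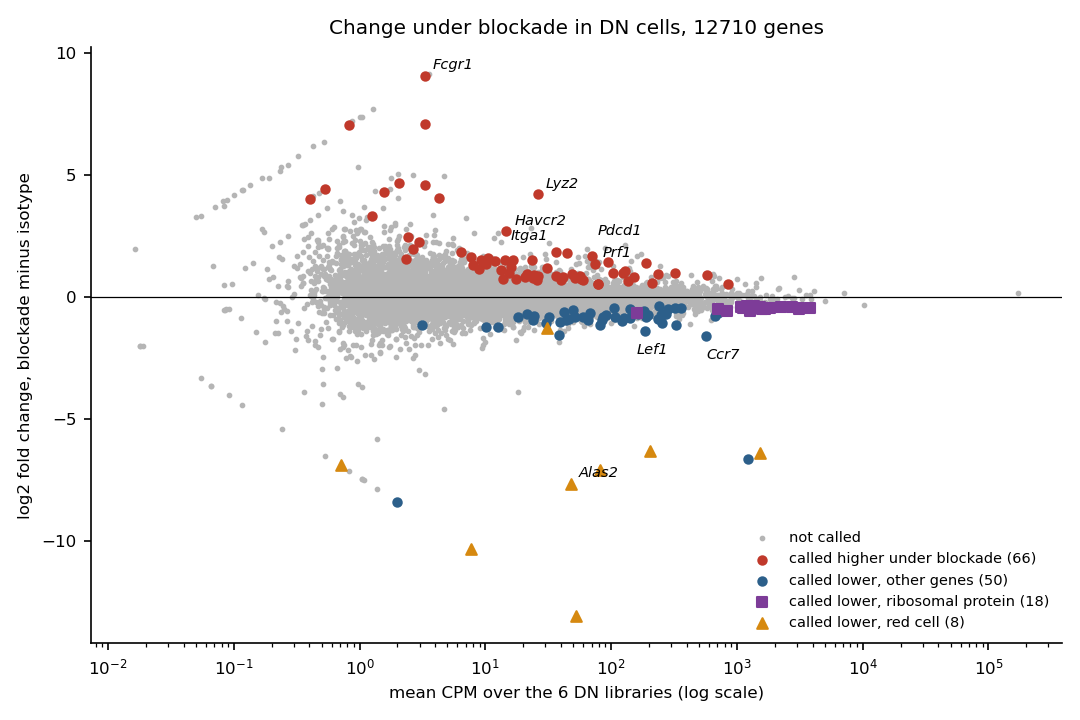
The plot shows each of the 12710 genes tested by its mean CPM over the 6 DN libraries (log axis) and its log2 fold change, blockade minus isotype. Genes called higher (66) lie above 0, and the genes called lower include 18 cytosolic ribosomal protein genes at high levels with small changes and 8 red cell genes, most of them far below 0; fitted values of genes with no counts in a group depend on the prior count of the model.

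The libraries held 8005818 to 9958960 counts under blockade and 8850713 to 9895277 under isotype. Levels are given as CPM, the share of a library's counts scaled to a common total by TMM-adjusted library size, without a correction for gene length, so they compare libraries and not genes. The blockade libraries had 15705 to 16162 detected genes against 15037 to 15581 under isotype. Rn45s, a ribosomal RNA precursor, made up 17.7 to 18.8% of all counts under blockade and 12.6 to 18.1% under isotype, lowest in isotype replicate 3. T cell transcripts were at similar levels in both groups. The summed level of 13 T cell identity genes was 5392 to 6881 CPM under blockade and 5519 to 7282 CPM under isotype. None of the 13 was called. This comparison does not measure purity, and transcripts of other cell types were present in both groups, as given below. Cd8a, a chain of the CD8 co-receptor, had 393.5, 491 and 523 CPM under blockade and 471, 574 and 437 CPM under isotype. In bulk libraries, fewer cells of a type and less RNA per cell cannot be told apart.

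Havcr2 had 18, 21.6 and 36.4 CPM in the blockade libraries (replicates 1, 2 and 3, as throughout) and 6.32, 2.93 and 2.48 CPM in the isotype libraries. The lowest blockade library was well above the highest isotype library, and the log2 fold change was 2.72 ± 0.34 (SE, adjusted p = 0.00713). In DP cells, which were sorted as carrying Tim-3, Havcr2 had 391, 306 and 249 CPM under blockade and 285, 293 and 245 CPM under isotype. The DN levels were far below those of the cells sorted as positive. The sort used the proteins, and the values here are mRNA. Pdcd1 had 58.6, 127 and 136 CPM in DN cells under blockade and 40.4, 25.4 and 33.8 CPM under isotype (log2 1.69 ± 0.26, adjusted p = 0.0166). Blockade replicate 1 was the lowest of the 3 for both genes. Pdcd1 was at 596 to 628 CPM in DP cells under blockade and 531 to 591 CPM under isotype.

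The promoters of the genes of T cell lists with the smallest p in each direction are shown here with the motifs of factors that act in these cells: AP-1, which T cell stimulation induces (TGANTCA), T-box factors such as T-bet (GGTGTGA), and TCF/LEF factors (CTTTGAA or CTTTGTT). Both strands of the 250 bases before to 50 bases after the annotated start were searched, and capitals mark a match. The windows are from RefSeq on GRCm38.p6, and they lie at chr11:46454681-46454980 (plus strand) for Havcr2 and chr11:97115282-97115581 (minus strand) for Tbx21, which encodes T-bet and rose. Those of the genes that fell lie at chr3:131110047-131110346 (plus strand) for Lef1, which encodes LEF-1 and has 4 windows of which the first listed is shown, and at chr1:184034131-184034430 (plus strand) for Dusp10, which encodes a phosphatase that inactivates stress-activated MAP kinases.
Havcr2: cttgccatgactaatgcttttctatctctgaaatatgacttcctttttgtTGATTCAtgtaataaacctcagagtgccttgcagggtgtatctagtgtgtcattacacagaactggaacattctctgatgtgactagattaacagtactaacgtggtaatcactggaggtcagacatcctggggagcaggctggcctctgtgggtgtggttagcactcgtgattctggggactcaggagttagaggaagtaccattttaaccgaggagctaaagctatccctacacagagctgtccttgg
Tbx21: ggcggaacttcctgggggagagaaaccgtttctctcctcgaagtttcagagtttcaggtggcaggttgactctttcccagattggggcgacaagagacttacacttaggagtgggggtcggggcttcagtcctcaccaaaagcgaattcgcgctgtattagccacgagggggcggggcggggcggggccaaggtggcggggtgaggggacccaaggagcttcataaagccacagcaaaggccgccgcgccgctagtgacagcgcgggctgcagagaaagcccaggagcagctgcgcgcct
Lef1: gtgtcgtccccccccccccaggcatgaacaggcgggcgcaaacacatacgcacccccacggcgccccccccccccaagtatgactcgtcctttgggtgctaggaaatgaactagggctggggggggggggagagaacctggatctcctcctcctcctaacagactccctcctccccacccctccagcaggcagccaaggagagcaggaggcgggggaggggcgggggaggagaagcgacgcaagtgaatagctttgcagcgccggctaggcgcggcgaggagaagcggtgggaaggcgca
Dusp10: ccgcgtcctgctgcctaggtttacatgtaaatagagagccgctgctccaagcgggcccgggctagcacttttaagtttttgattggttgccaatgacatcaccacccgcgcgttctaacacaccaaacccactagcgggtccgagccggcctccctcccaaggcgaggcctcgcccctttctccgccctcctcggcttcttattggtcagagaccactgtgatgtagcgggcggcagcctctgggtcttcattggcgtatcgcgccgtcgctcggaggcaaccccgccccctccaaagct
Only the Havcr2 window held a match to any of the 3 motifs, an AP-1 motif that starts 200 bases before the annotated start. Among the genes that rose, 53 of 66 had a window, and 8 of these (15.1%, exact binomial 95% interval 6.75 to 27.6%) held an AP-1 match, among them Havcr2, Klrk1 and Cd80. The share was 7.93% of all 27025 windows, which lies within that interval, and these windows include genes not tested here. The T-box motif was in 3 of the 53 (5.66%) and in 3.96% of all windows, and the TCF/LEF motif in 5 (9.43%) and in 10.6% of all windows. Fewer than 80% of the genes that fell (58 of 76) and of all genes tested (10118 of 12710) had a window, so a comparison with either is void. Their shares were 5.17% and 5.16% for AP-1, 0% and 3.47% for T-box, and 3.45% and 7.39% for TCF/LEF. They are printed without a comparison, and no excess or lack of a motif is read from any of these shares. A match is a description of letters and says nothing of binding.

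Genes of cytotoxic granules, the vesicles that kill target cells, lay mostly above isotype. Of 20 tested, 3 rose, none fell and 17 did not pass, with a median log2 fold change of 0.62. With the DN libraries fitted alone the median was 0.36, over the members that passed the filter of that fit. The medians may thus cover different genes, and the log2 fold change of Prf1 was 1.38 and 1.42 in these fits. In 10 of the 20 genes all blockade libraries were above all isotype libraries, against 6.49% of all genes. Prf1, the pore-forming perforin, had 98.5, 90.5 and 132 CPM under blockade and 36.2, 54.3 and 32.9 CPM under isotype (log2 1.38 ± 0.23, adjusted p = 0.0232). Stx11, a syntaxin needed for granule release, had 28.9, 33.7 and 31.3 CPM under blockade and 17, 15.6 and 18.1 CPM under isotype (adjusted p = 0.0232). Gzmk, granzyme K, had 76.8, 60.9 and 56.6 CPM under blockade and 33.3, 38.0 and 42.4 CPM under isotype (log2 0.77 ± 0.15, adjusted p = 0.0334), and it lost its call with the replicate block (adjusted p = 0.0604). In each of the 3 the groups stood apart. Gzmb, the main granzyme of CD8+ effectors, had 520.0, 371 and 793 CPM under blockade and 259, 303 and 323 CPM under isotype, which did not pass (adjusted p = 0.0700), although the groups did not overlap. Gzma differed within the blockade group, at 177, 53.8 and 57.4 CPM, against 86.6, 72.2 and 70.5 CPM under isotype (adjusted p = 0.764). Gzmf had 4.55, 14.4 and 2.28 CPM under blockade and no counts in the isotype libraries, which allows up to 0.106 CPM over the group (3 counts), and did not pass (adjusted p = 0.0582); the granzyme cluster holds similar copies between which reads may be split.

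Among 14 effector cytokine and death ligand genes, Ifng rose and 13 did not pass (median 0.69). Ifng, interferon gamma, had 28.7, 47.8 and 52.2 CPM under blockade and 16.4, 20.1 and 19.4 CPM under isotype (log2 1.20 ± 0.22, adjusted p = 0.0286; 0.0564 with the replicate block). Tnf had 32.9, 61.0 and 60.9 CPM under blockade and 32.0, 37.0 and 25.5 CPM under isotype and did not pass (adjusted p = 0.145). Blockade replicate 1 was again the lowest for both. Fasl, the death ligand, had 129.8, 118 and 126 CPM under blockade against 86.7, 92.6 and 67.7 CPM under isotype (adjusted p = 0.0506). Of 12 chemokine genes, 1 rose, with a median of 0.84. With the DN libraries fitted alone the median was 0.39, over the members that passed the filter of that fit. The gene called was Ccl1, with 0.405, 3.29 and 1.29 CPM under blockade and no counts under isotype. This was at least 15.7-fold higher against the limit of 3 counts over the group (adjusted p = 0.0424, and 0.0753 with the block). Ccl1 passed the filter on low counts only through the DP libraries, where it had 13.3 to 35.4 CPM. With the DN libraries alone it was filtered out and not tested, so its call is weak for DN cells. Ccl5, the most strongly made chemokine of effector cells, was at 1233 to 1510.1 CPM under blockade and 933 to 1233 CPM under isotype (adjusted p = 0.410).

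Of 20 effector transcription factors 2 rose, none fell and 18 did not pass, with 15 log2 fold changes above 0 and a median of 0.35. Of 20 naive and memory factors 2 fell, none rose and 18 did not pass, with 15 below 0 and a median of -0.48. Tbx21 had 148, 155 and 197 CPM under blockade and 76.0, 101 and 72.7 CPM under isotype (log2 1.0 ± 0.15, adjusted p = 0.0145). Bhlhe40, a repressor needed by effector and resident T cells, had 606, 665 and 986 CPM under blockade and 495, 386 and 325 CPM under isotype (adjusted p = 0.0415; 0.0721 with the block). Lef1 had 140.0, 101 and 67.4 CPM under blockade and 242, 315 and 248 CPM under isotype (log2 -1.38 ± 0.21, adjusted p = 0.0173). Foxp1, which keeps naive T cells quiescent, had 148, 172 and 118 CPM under blockade and 231, 287 and 215 CPM under isotype (adjusted p = 0.0391; 0.0677 with the block). The groups did not overlap for any of these 4 genes. In 9 of the 20 naive and memory factors every blockade library was below every isotype library, against 10.2% of all genes. They included Tcf7, which encodes TCF-1, at 289.7, 283 and 159 CPM under blockade and 369.5, 503 and 366 CPM under isotype, which did not pass (adjusted p = 0.0877). Prdm1, which encodes the effector repressor Blimp-1, had 40.4, 38.2 and 39.3 CPM under blockade and 30.0, 20.3 and 14.8 CPM under isotype and did not pass either (adjusted p = 0.0892).

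**Figure D2:**
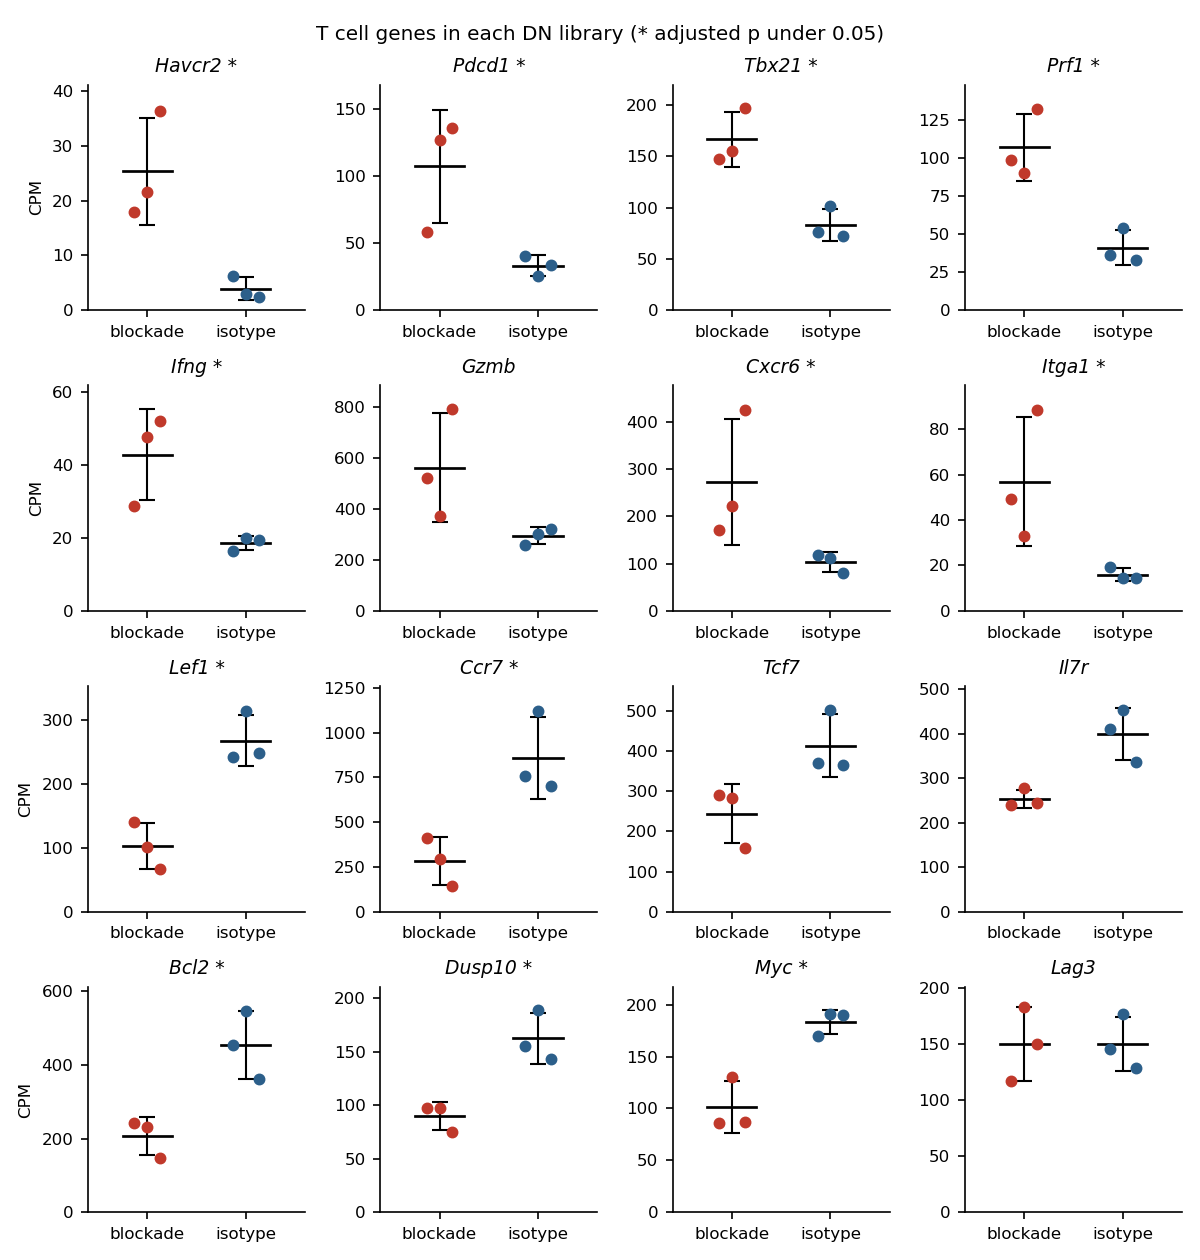
Each panel shows the CPM of 1 gene in the 3 blockade libraries (left) and the 3 isotype libraries (right), with the mean and SD, and an asterisk where the adjusted p was under 0.05. Havcr2, Pdcd1, Tbx21, Prf1, Ifng, Cxcr6 and Itga1 are higher and Lef1, Ccr7, Bcl2, Dusp10 and Myc lower under blockade without overlap of the groups; Gzmb, Tcf7 and Il7r also do not overlap but did not pass, and Lag3 overlaps.

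Few homing and residence receptors passed. Of 16 lymphoid homing and egress genes Ccr7 fell and 15 did not pass, with 10 log2 fold changes below 0 and a median of -0.27. Ccr7, the receptor that guides cells into lymph nodes, had 409, 295 and 144 CPM under blockade and 755, 1118 and 699 CPM under isotype (log2 -1.60 ± 0.33, adjusted p = 0.0415). Of 17 chemokine receptor genes, Ccr2 and Cxcr6 rose and Ccr7 fell. Cxcr6, a receptor of T cells that stay in tissue, had 172, 221 and 424 CPM under blockade and 119, 112 and 79.1 CPM under isotype (adjusted p = 0.0379; 0.0678 with the block). Ccr2, a receptor for inflammatory chemokines, had 153, 145 and 229.6 CPM under blockade and 92.2, 92.8 and 65.5 CPM under isotype (adjusted p = 0.0272; 0.0520 with the block). Blockade replicate 3 was the highest of its group for both. Among 20 integrin and residency genes Itga1, the alpha chain of the collagen receptor VLA-1, also rose, at 49.5, 33.1 and 88.2 CPM under blockade and 19.3, 14.3 and 14.3 CPM under isotype (log2 1.84 ± 0.31, adjusted p = 0.0232). Itgae, which encodes CD103 of epithelial residence, lay the other way, at 24.3, 26.9 and 16.1 CPM under blockade and 40.2, 78.4 and 50.8 CPM under isotype, and did not pass (adjusted p = 0.162).

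Of 26 co-inhibitory receptor genes 3 rose, none fell and 23 did not pass, with a median of 0.00. Havcr2 and Pdcd1 were joined by Entpd1, which encodes the ectonucleotidase CD39, at 51.5, 40.7 and 66.3 CPM under blockade and 28.4, 36.4 and 24.9 CPM under isotype (adjusted p = 0.0424; 0.0819 with the block). Lag3 had 117, 183 and 150.1 CPM under blockade and 145, 176 and 129 CPM under isotype, and Tigit 80.6, 93.2 and 159 CPM under blockade and 138, 101 and 97.5 CPM under isotype. These groups overlapped, so a rise was found for the receptors that the antibodies bind and for Entpd1 and was not detected for most others on the list. Of 19 co-stimulatory receptor genes Tnfrsf4, which encodes OX40, rose (14.9, 18 and 19.7 CPM under blockade against 8.16, 3.04 and 7.74 CPM under isotype; adjusted p = 0.0415, and 0.0567 with the block). Of 25 NK receptor genes, the NKG2 genes Klrc1 and Klrk1 rose (median of the list -0.02). Klrk1, the activating receptor NKG2D, had 374, 388 and 527 CPM under blockade and 238, 255 and 155 CPM under isotype (adjusted p = 0.0306; 0.0623 with the block). Klrc1, which encodes the inhibitory receptor NKG2A, had 117, 123 and 174 CPM under blockade and 76.8, 76.0 and 57.6 CPM under isotype (log2 0.98 ± 0.15, adjusted p = 0.0177); NKG2 genes have similar copies whose reads may be split between them.

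Survival and signalling genes gave few calls. In the BCL-2 family (18 tested), Bcl2, the survival factor of naive and memory T cells, fell to 242, 231 and 147 CPM under blockade, against 455, 547 and 363 CPM under isotype (log2 -1.14 ± 0.20, adjusted p = 0.0258; 0.0520 with the block). Bcl2l1, which encodes the survival factor BCL-XL of activated cells, had 88.2, 89.5 and 105 CPM under blockade and 58.7, 69.3 and 63.5 CPM under isotype (adjusted p = 0.0345; 0.0701 with the block). Both family members thus stood apart between the groups, in opposite directions. Of 27 immediate early and AP-1 genes, Egr1 and Atf3 rose and Myc fell. Egr1, a factor induced by T cell receptor signals, had 245, 284 and 228 CPM under blockade and 151, 169 and 181 CPM under isotype (adjusted p = 0.0232). Myc, a driver of cell growth, had 86.4, 130.1 and 87.4 CPM under blockade and 169.5, 190.5 and 189.6 CPM under isotype (log2 -0.86 ± 0.16, adjusted p = 0.0306). Among 20 cytokine feedback genes Dusp10 fell, at 97.5, 97.2 and 74.7 CPM under blockade and 155, 189 and 143 CPM under isotype (adjusted p = 0.0249; 0.0515 with the block). Ifngr2, a chain of the interferon gamma receptor, was the only one of 27 cytokine receptor genes called and fell (59.3, 40.0 and 35.2 CPM under blockade against 83.7, 93.4 and 83.0 CPM under isotype; adjusted p = 0.0482, and 0.0764 with the block). Il7r, the interleukin-7 receptor of naive and memory cells, had 239, 277 and 244 CPM under blockade and 409, 452 and 336 CPM under isotype and did not pass (adjusted p = 0.0582).

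None of 35 interferon-stimulated, 22 glycolysis, 30 oxidative phosphorylation, 25 G2/M, 27 S phase, 16 heat shock, 20 antigen processing or 35 T cell receptor signalling genes was called. Mki67, a marker of cycling cells, had 45.8, 39.1 and 43.1 CPM under blockade and 54.7, 32.8 and 39.1 CPM under isotype (adjusted p = 0.970). The interferon-stimulated list had 29 of 35 log2 fold changes above 0 and a median of 0.23. The glycolysis list had 18 of 22 above 0 and a median of 0.32. Over all genes tested, 6216 were above 0 and 6489 below. Every blockade library was above every isotype library in 5 of the 35 and in 1 of the 22. The summed levels overlapped, for glycolysis at 10120 to 13480 CPM under blockade and 7071 to 12110 CPM under isotype. At an unadjusted p under 0.05 there were 1981 genes in the whole comparison. In simulated counts without effects shared within a library, the test called 48% of genes changed 2-fold and 71% of genes changed 4-fold. With the 6 DN libraries alone these shares were 40% and 68%, although the real data gave 2 calls in that fit. The simulated libraries lack shared effects that real libraries may have, so the shares need not hold for these lists. Smaller shifts were not simulated.

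**Figure D3:**
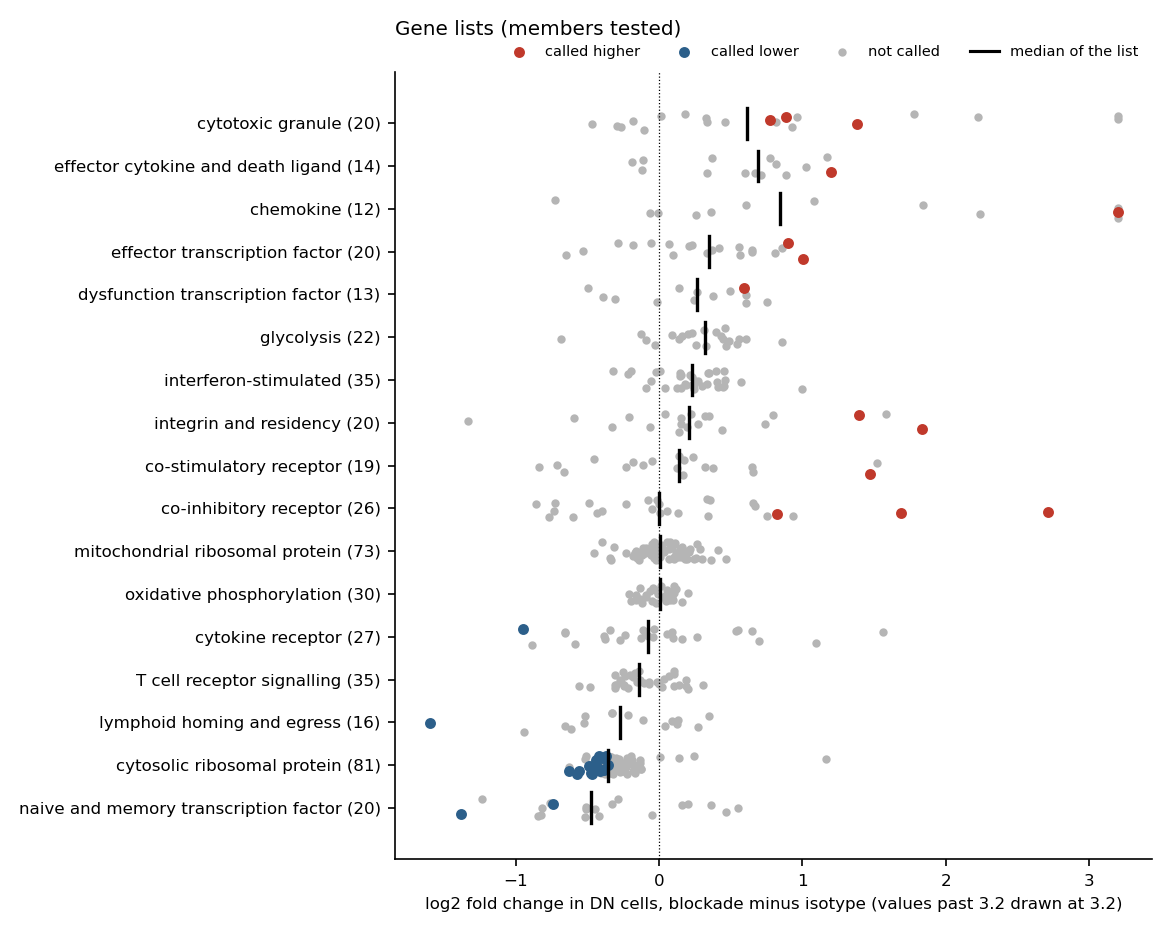
Each point is the log2 fold change of 1 gene in DN cells, blockade minus isotype, by gene list; coloured points passed the test and black lines are list medians. Cytotoxic, cytokine and chemokine lists have medians of 0.62, 0.69 and 0.84. With the DN libraries fitted alone these are 0.36, 0.66 and 0.39, over the members that passed the filter of that fit. Naive and memory factors and cytosolic ribosomal proteins have medians of -0.48 and -0.35, and mitochondrial ribosomal proteins lie at 0.01.

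Several other genes that fell act as brakes on growth or are marks of quiescent lymphocytes; they were picked after their values were seen. Pdcd4, an inhibitor of translation initiation, had 165, 181 and 155 CPM under blockade and 376, 361 and 293 CPM under isotype (log2 -1.04 ± 0.14, adjusted p = 0.00968). Txnip, which limits glucose uptake, had 215, 185 and 212 CPM under blockade and 305, 363 and 309.9 CPM under isotype (adjusted p = 0.0232). Tsc22d3, the glucocorticoid-induced GILZ, had 463, 458 and 555 CPM under blockade and 867, 962 and 700.2 CPM under isotype (adjusted p = 0.0286). Pik3ip1, an inhibitor of PI3 kinase, had 58.5, 52.4 and 40.5 CPM under blockade and 107, 127 and 104 CPM under isotype (adjusted p = 0.0291). In all 4 the groups stood apart. Smc4, a condensin subunit, fell by 0.87 ± 0.11 on the log2 scale (adjusted p = 0.00943), Herpud1, of the endoplasmic reticulum stress response, by 0.82 ± 0.12 (adjusted p = 0.0145), and Jak1, the kinase of common cytokine receptors, by 0.47 ± 0.10 (adjusted p = 0.0465). Among genes that rose outside the lists were Capg, an actin-capping protein, at 302, 253 and 371 CPM under blockade and 181, 128 and 174 CPM under isotype (log2 0.94 ± 0.15, adjusted p = 0.0232), and Gcnt1, the enzyme that builds core 2 O-glycans on activated T cells, at 19, 18.6 and 29.8 CPM under blockade and 9.53, 6.62 and 12.2 CPM under isotype (adjusted p = 0.0440).

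The largest family among the calls was that of cytosolic ribosomal proteins, a list added after the values were seen. Of 81 tested, 18 fell, none rose and 63 did not pass, and they made up 23.7% of the genes that fell. The change was small and shared: 77 had a log2 fold change below 0, in 73 every blockade library was below every isotype library (10.2% of all genes), and the median was -0.35. Their summed level was 89890, 90240 and 81460 CPM under blockade and 109500, 116000 and 108000 CPM under isotype. Rps19, of the small subunit, had 1103, 1074 and 915 CPM under blockade and 1493, 1606 and 1498 CPM under isotype (log2 -0.57 ± 0.09, adjusted p = 0.0232). Rplp0, of the large subunit stalk, had 3382, 3406 and 3003 CPM under blockade and 4124, 4536 and 4465 CPM under isotype (adjusted p = 0.0326). In DP cells the median of the list was 0.01. The 73 mitochondrial ribosomal protein genes had no call and a median of 0.01. The cytosolic count was 13 with DESeq2-type size factors and 11 without Rn45s, with medians of -0.35 and -0.33, and it was 2 with the replicate block and 0 with the DN libraries alone. Ribosomal protein genes have many processed copies in the genome, so the split of reads between them is uncertain.

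Transcripts of other cell types differed between the groups as well. Of 10 red cell genes 8 fell, and their summed level was 147, 30.4 and 27.9 CPM under blockade and 3373, 5407 and 2771 CPM under isotype. Alas2, which starts haem synthesis in developing red cells, had 0.910, 0.127 and 0.297 CPM under blockade and 80.2, 127 and 77.2 CPM under isotype (adjusted p = 1.76e-05). Fech, the last enzyme of haem synthesis, fell by 1.03 ± 0.13 on the log2 scale (adjusted p = 0.00713). Haemoglobin genes have near-identical copies, so their split is uncertain. The same genes were lower under blockade in DP cells, where 5 of the 8 genes called were red cell genes. The DN and DP libraries share the numbers in their names, so the DP values may not be independent of the DN values. Treatment and the set of libraries cannot be told apart here. The part of these red cell transcripts in the other results was not tested.

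Of 18 plasmacytoid dendritic cell genes 17 had a log2 fold change below 0 and 1 was called. In 11, every blockade library was below every isotype library, against 10.2% of all genes, and the summed level was 1773, 2668 and 1945 CPM under blockade and 3277, 4004 and 2693 CPM under isotype. Siglech, a defining receptor of these cells, had 214, 361 and 243 CPM under blockade and 561, 725 and 459 CPM under isotype (adjusted p = 0.266). Rpgrip1, the gene called, had 29, 35.3 and 26.2 CPM under blockade and 56.4, 58.1 and 56.6 CPM under isotype (adjusted p = 0.0272). Of 28 myeloid genes 3 rose, none fell and 25 did not pass, with 16 log2 fold changes above 0 and 12 below. Every blockade library was above every isotype library in 7 and below in 2. The summed levels overlapped, at 2799 to 3417 CPM under blockade and 2988 to 3525 CPM under isotype. Lyz2, lysozyme of macrophages, had 45.4, 88.7 and 14.1 CPM under blockade and 3.68, 1.63 and 2.58 CPM under isotype (adjusted p = 0.0128), and its reads are hard to tell from those of Lyz1, the second gene called. Fcgr1, a high-affinity antibody receptor of macrophages, had 7.58, 10.00 and 2.18 CPM under blockade and no counts under isotype, at least 62.1-fold higher (adjusted p = 0.00953). C3ar1, Cd80, Arg1 and Pilra, which myeloid cells also make, rose too, but they are not on the list and were picked after their values were seen. C3ar1 had 8.90, 8.35 and 1.98 CPM under blockade and 0.459, 0.109 and 0.199 CPM under isotype (adjusted p = 0.0232). Blockade replicate 3 was the lowest of its group for Lyz2, Fcgr1 and C3ar1. Among called T cell genes it was the highest for Prf1, Tbx21 and Havcr2 but the lowest for Gzmk and Egr1. It had the highest blockade value in 35 of the 66 genes that rose. The part of these myeloid transcripts and of those of plasmacytoid dendritic cells in the results on T cell genes was not tested.

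Summed levels of the other marker lists were 81.1 to 127 CPM under blockade and 149 to 183 CPM under isotype for 7 CD4 and regulatory T cell genes. They were 97.0 to 163 and 148 to 218 CPM for 10 B cell genes, with Cd79a at or below 1.82 CPM in every DN library, and 267 to 427 and 338 to 478 CPM for 8 NK and gamma-delta T cell genes. For 19 tumour and stroma genes they were 2290 to 4586 CPM under blockade and 1256 to 2997 CPM under isotype. No member of these 4 lists was called. Of the 19 tumour and stroma genes 15 had a log2 fold change above 0 and 4 below, with a median of 0.67. Every blockade library was above every isotype library in 1 of the 19 and below in 3. Of the 10 B cell genes 7 lay below 0 and 3 above (median -0.52). Of the 8 NK and gamma-delta T cell genes 4 lay above 0 and 4 below (median 0.21). Cd4 had 52.6, 83.8 and 57.4 CPM under blockade and 141, 139.6 and 119.5 CPM under isotype (adjusted p = 0.0695), so the groups did not overlap, and it made up most of the sum of its list. Of the 7 genes of that list 4 had a log2 fold change above 0, in 2 every blockade library was above every isotype library, and the median was 0.55. The part of these transcripts in the results was not tested.

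**Figure D4:**
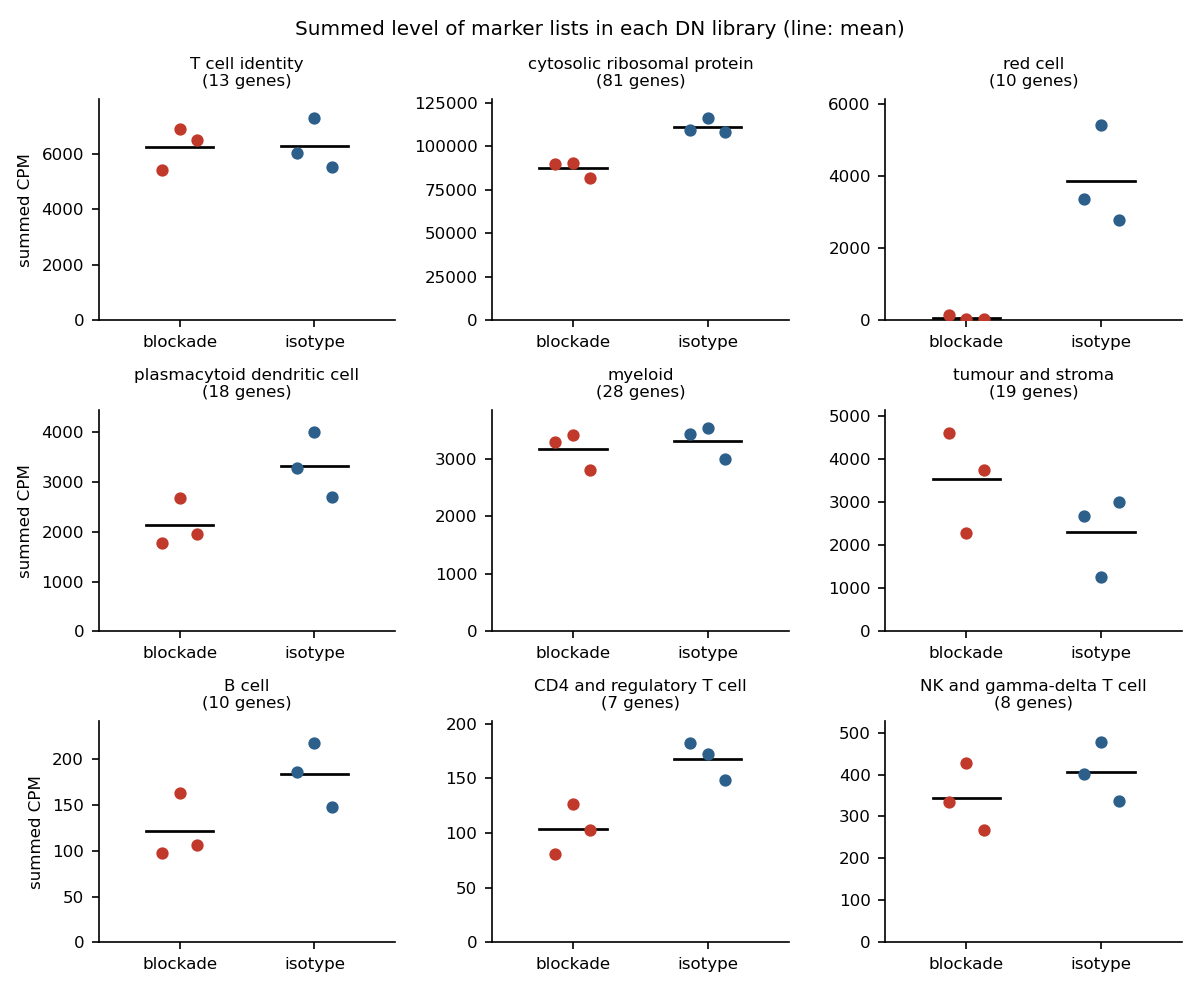
Each panel shows the summed CPM of a marker list in the 3 blockade libraries (left) and the 3 isotype libraries (right), with the mean as a line. T cell identity genes overlap (5392 to 6881 and 5519 to 7282 CPM), while cytosolic ribosomal protein, red cell and plasmacytoid dendritic cell sums are lower under blockade, as is the CD4 T cell sum, which is mostly Cd4 itself (4 of its 7 genes have a log2 fold change above 0), the red cell sum at 27.9 to 147 against 2771 to 5407 CPM; the plasmacytoid sum is at 1773 to 2668 against 2693 to 4004 CPM.

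The DP libraries show how the same genes stood in cells that carry the receptors. In DP cells 8 of 12710 genes were called between blockade and isotype (0.0629%), 1 higher and 7 lower, and 909 had an unadjusted p under 0.05. All 7 that fell there also fell in DN cells: 5 red cell genes, Apol11b and Pdcd4. Pdcd4 fell by 0.94 on the log2 scale in DP cells. The DN and DP libraries are separate, each sort with its own isotype libraries, but they share the numbers in their names (1, 2 and 3 under isotype, 7, 8 and 9 under blockade). The labels do not say what a number marks, and the replicate numbers of the titles cross it. The deviations of DN and DP libraries with the same number from their group means correlated at -0.006 to 0.326. Of the 66 genes that rose in DN cells, 52 had a log2 fold change above 0 in DP cells, with a median of 1.22 in DN and 0.20 in DP cells. Of the 76 that fell, 55 were below 0 in DP cells, with a median of -0.76 in DN and -0.08 in DP cells. The test of the difference between the DN change and the DP change called no gene (0%; edgeR, smallest adjusted p = 0.152; 1070 genes at an unadjusted p under 0.05), so no change is shown to be particular to DN cells. Cd4, Dusp10 and 4931406H21Rik were among the genes with the smallest p. Dusp10 changed by -0.86 in DN cells and by 0.47 in DP cells, and the difference was -1.33 ± 0.21 (unadjusted p = 3.5e-05, adjusted p = 0.152). Havcr2 changed by 2.72 in DN cells and by 0.20 in DP cells (difference 2.51 ± 0.43, adjusted p = 0.192). Tbx21 and Ifng were above isotype in both sorts, with log2 fold changes of 1.0 and 1.20 in DN cells and of 0.66 and 0.72 in DP cells. Some called genes moved in DN cells toward their DP isotype level, of which examples follow. The DN isotype values behind the calls also set the distance to DP cells, so such a move adds no support. How many of the 142 genes moved in this way was not counted. Mean CPM in DN isotype, DN blockade and DP isotype libraries was 41.1, 107.1 and 888.1 for Prf1. It was 6.31, 17.5 and 89.2 for Tnfrsf4, and 268.3, 102.8 and 42.3 for Lef1. Smc4 fell past its DP level (306.0, 167.2 and 256.0). Tigit was higher in DP cells (112.2, 110.9 and 240.5) but was not called. Whether DN cells under blockade included cells of the DP kind was not tested.

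The sorted subsets of PD-1- TILs gave a readout in libraries that the DN comparison did not use. The genes that rose under blockade were on balance higher in effector-like than in naive-like cells, and those that fell were lower. The called genes were not compared as a set between DP and DN cells, so a shift toward the DP profile was not tested. Of the 66 genes that rose, 63 were tested in the subsets: 20 (31.7%) were higher in effector-like than in naive-like cells, none was lower, and the median log2 fold change was 1.25. Over the 11899 genes tested in both tables, 2.67% were higher, 3.92% were lower and the median was 0.03. Of the 76 that fell, 67 were tested: 40 (59.7%) were lower in effector-like than in naive-like cells, none was higher, and the median was -0.95. The 20 and the 40 are 6.29% of the genes higher and 8.57% of those lower between the subsets. The 76 include 18 cytosolic ribosomal protein genes that moved together, and Rps19 was among the 40 (-1.11). How many of the 40 belong to this family was not counted. With the DN calls of the replicate block, 12 genes that fell were lower here instead of 40. The naive-like libraries have a different date in their names from the effector-like and memory-like ones, so date and subset cannot be told apart there.

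Within 1 date, between effector-like and memory-like cells, the genes that fell again stood on the effector-like side. Of the 67, 24 (35.8%) were lower in effector-like cells and none was higher, with a median of -0.44, against 1.47% lower over all genes. Rps19 was among the 24 (-0.83), and the number of ribosomal protein genes among them was not counted. With the DN calls of the replicate block, 9 genes that fell were lower instead of 24. Of the 63 that rose, 3 (4.76%) were higher, none was lower, and the median was 0.57, against 0.496% higher over all genes. The shares of the subset lists were 13.7% and 5.08%. Ccr7 differed by -3.99 between effector-like and naive-like cells and by -2.57 between effector-like and memory-like cells, and Myc by -2.43 and -2.57. Lef1 differed by -1.78 from naive-like cells but by -0.27 from memory-like cells (adjusted p = 0.740). Prf1 was higher in effector-like cells than in both, by 2.19 and 1.298. Pdcd1 was higher than in naive-like cells by 1.91 (adjusted p = 0.00333) and did not differ beyond the spread from memory-like cells (0.48, adjusted p = 0.724). Havcr2 differed by 2.83 and 3.04 and did not pass in either (adjusted p = 0.224 and 0.374).

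Several markers of the sorted effector-like cells did not pass under blockade. Their log2 fold changes in DN cells were above 0, at 0.78 ± 0.29 for Cx3cr1, 0.76 ± 0.58 for Klrg1, 0.37 ± 0.17 for Slamf7 and 0.33 ± 0.45 for Gzma. Cx3cr1, the receptor that defines the effector-like sort, had 47.9, 30.2 and 17.9 CPM in DN cells under blockade and 19.1, 23.1 and 13.9 CPM under isotype (adjusted p = 0.219). Klrg1, a marker of terminal effectors, had 45.3, 11.3 and 7.52 CPM under blockade and 15.2, 12.8 and 10.1 CPM under isotype (adjusted p = 0.566). Only blockade replicate 1 was above the isotype libraries for Klrg1 and for Gzma, and it was the highest for Cx3cr1. Slamf7, the marker shared by the effector-like and memory-like sorts, had 38.1, 57.9 and 61.5 CPM under blockade and 40.2, 42.9 and 38.4 CPM under isotype (adjusted p = 0.310). Effector-like replicates 1 and 2 carry several numbers in their names, so these libraries may be pools.

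**Figure D5:**
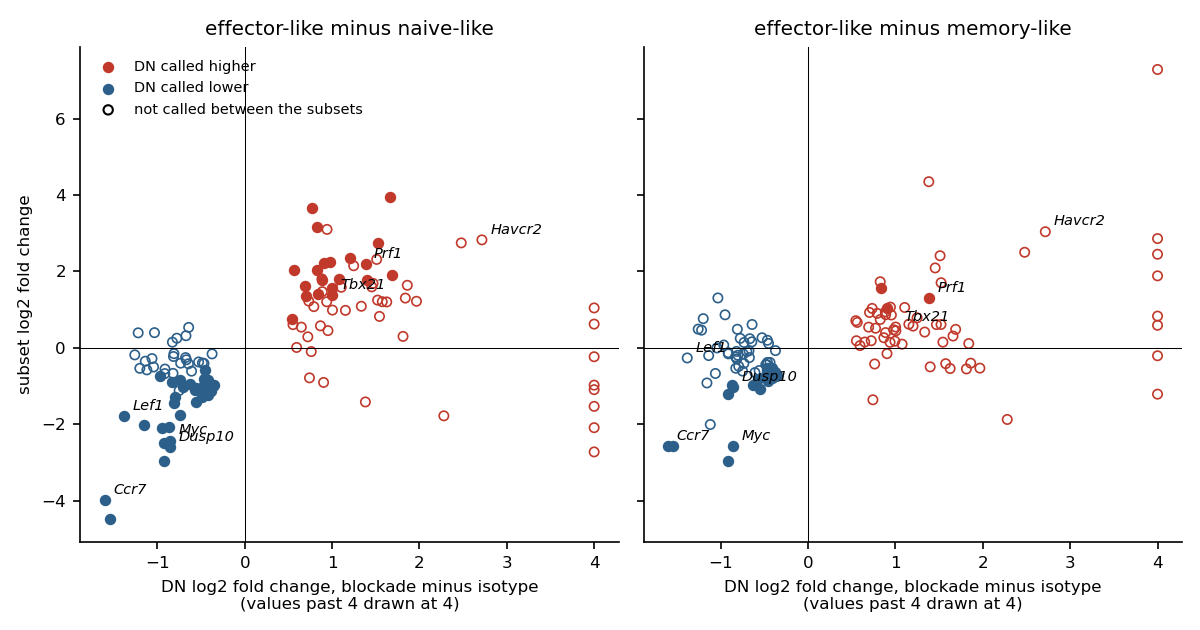
Each point is a gene called in DN cells, placed by its log2 fold change under blockade (x axis) and by its log2 fold change between sorted subsets (y axis), effector-like minus naive-like on the left and effector-like minus memory-like on the right; filled points passed the test between the subsets. Filled red points lie above 0 (20 and 3 genes) and filled blue points below 0 (40 and 24 genes) in both panels, with none in the other quadrants.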

How the data were processed

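The labels' processing notes name TopHat, RSEM and DESeq with mm9 for the bulk libraries, with no role or version. The deposited tables hold expected counts per gene (estimated counts, 30.5% not whole in the DN and DP table and 22.6% in the subset table), and the deposited normalized table holds a signal that was proportional to the counts in 99.99% of 8233 genes checked, within 1%. Expected counts were rounded to whole numbers. Genes were filtered by filterByExpr, scaled by TMM and tested with the quasi-likelihood test of edgeR 4.0.16 (R 4.3.3), with 1 mean per group over 12 and 14 libraries, on 12710 and 12388 genes, and the biological coefficient of variation was 0.229 and 0.624; 4 repeated names were left out of the subset table. No coordinates of mm9 were used. Promoter windows of RefSeq were matched by symbol or synonym. Limits for 0 counts use 3 counts over a group and cover counting error only, as do the intervals.

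By title number, the DN blockade and isotype libraries deviated together from their group means in all 3 pairs (r = 0.122, 0.383 and 0.184). Another matching was also positive in all 3 pairs. It set blockade replicates 1, 2 and 3 against isotype replicates 3, 2 and 1 (r = 0.199, 0.383 and 0.0339). Blockade replicate 1 correlated more with isotype replicate 3 than with isotype replicate 1. These values cannot decide whether the libraries are paired, and the labels give no reason for a pairing. The fit reported has no block. Replicates differed by more than counting noise (chi-square per degree of freedom 14.2 to 37.4). The genes named are the sort genes, in each direction the 12 non-overlapping calls with the smallest p, for every list at most 4 of its calls, and 23 T cell state genes, of which the text gives those its groups turn on. Some genes of the rule are not reported here. Txnip, Tsc22d3, Pik3ip1, Jak1, Gcnt1, Rplp0, Cd80, C3ar1, Arg1, Pilra, Cd4, Siglech, Fasl, Ccl5, Gzmf, Itgae, Prdm1, Cd79a, Rn45s, Dnajb11 and 4931406H21Rik fall outside this rule and were chosen after their values were seen. The libraries, comparisons and lists were chosen with earlier results of these data known. The alternatives were other scalings, filters, tools (DESeq2 1.42.0, limma 3.58.1), blocks and left-out libraries.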

Additional observations from a re-analysis of the deposited data

How the results depend on the processing

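The DN count of 142 was 224 with no filter on low counts, 541 with DESeq2 (250 higher, 291 lower), 217 with limma-voom and the library number as a random block, 203 with limma-voom, and 226 with limma on the log2 of the normalized value plus 1. It was 59 with the replicate block in 12 libraries, 2 with the 6 DN libraries alone, 21 with the replicate block in the DN libraries alone, and 93 in that fit with the genes and scaling of all 12, which was chosen after seeing the data. It ranged from 22 to 229 when single replicates were left out, and was 103 (58 higher, 45 lower) without cytosolic ribosomal protein genes, also chosen after seeing the data. In each of these settings the 142 genes kept their sign where they could be fitted (136 with the DN libraries alone). The settings reuse the same libraries, whose groups did not overlap in 65 of the 66 and 76 of the 76. The kept sign was thus nearly bound to follow and adds no support. Of the 46 named genes that were called, 31 were called with the 12-library block and 15 were not (adjusted p 0.0515 to 0.0819). The test of the DN change against the DP change called 7 genes with no filter, 1 with the replicate block and 0 to 3 without single replicates. The DP count of 8 was 17 with no filter, 4 with the block and 3 to 9 without single replicates. With the DN calls of the block, 20 genes instead of 60 passed the same way between effector-like and naive-like cells and 10 instead of 27 between effector-like and memory-like cells. The cause of these shifts was not tested. With 3 libraries a group an exact permutation test cannot go below 0.10.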
